A study of Zea mays with 21 samples.

Results

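Glycolysis and ethanol fermentation were followed through 6 genes: hexokinase7 (Zm00001d037689), phosphohexose isomerase 1 (Zm00001d034256), aldolase2 (Zm00001d012103), glyceraldehyde-3-phosphate dehydrogenase 4 (Zm00001d017121), pyruvate kinase (Zm00001d052494) and pyruvate decarboxylase1 (Zm00001d010588). They are the genes that the study names for these pathways apart from a further pyruvate decarboxylase, and they are 6 of the 23175 protein-coding genes (PCgenes) listed. The study named 5 of them as up-regulated in the same libraries and pyruvate kinase as a member of a cluster of genes changed in them, so their direction here is not independent evidence of it. Enzyme names were taken from the study, since none of the 23175 IDs was paired with a name in the annotation used here.

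The primary root tips of seedlings of the maize inbred line B73 were sampled at the second leaf stage before waterlogging (WS_0h) and after 2, 4, 6, 8, 10 and 12 h under a layer of water (WS_2h to WS_12h). Each of the 7 time points had 3 libraries, and each library was made from 10 mixed root tips, so 21 libraries were available. All plants were of the same genotype, and treatment began at the same morning hour for all of them without an unflooded control at the later hours, so the effects of stress duration and of the hour of day cannot be told apart. The values are TPM, that is, read counts corrected for gene length and scaled within each library, so that levels can be compared between genes. TPM keep no read depth, and the precision of each value rests on its 3 libraries. The labelled tissue was not checked against markers, because the IDs could not be paired with marker names. In a mixed tissue fewer cells of a type and less RNA per cell cannot be told apart.

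In plant cells, glycolysis splits sugar into pyruvate and yields a little ATP without oxygen. Hexokinase phosphorylates glucose, phosphohexose isomerase turns glucose 6-phosphate into fructose 6-phosphate, aldolase cleaves fructose 1,6-bisphosphate, glyceraldehyde-3-phosphate dehydrogenase oxidizes the resulting triose phosphate and reduces NAD+, and pyruvate kinase forms pyruvate and ATP. In roots short of oxygen, NAD+ has to be restored outside the mitochondria, and pyruvate decarboxylase opens the route that does so, by turning pyruvate into acetaldehyde, the precursor of ethanol.

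Before waterlogging the 6 genes differed widely in level. Glyceraldehyde-3-phosphate dehydrogenase 4 (471 ± 119.8 TPM, mean ± SD, n = 3) and aldolase2 (414 ± 86.7 TPM) were the highest, at places 108 and 135 among all PCgenes by mean TPM. Their libraries overlapped, although the dehydrogenase was above aldolase2 in all 3. Phosphohexose isomerase 1 (98.9 ± 13.5 TPM) and pyruvate kinase (80.6 ± 12.3 TPM) followed and also overlapped. Hexokinase7 lay below both at 16.8 ± 5.05 TPM, and pyruvate decarboxylase1 was nearly absent, at 0.293 ± 0.0473 TPM and place 22884. Thus hexokinase7 and pyruvate decarboxylase1 started from the lowest levels of the 6 genes, and neither overlapped the gene above it. Their levels do not stand for the whole of their steps. The further pyruvate decarboxylase named by the study, isozyme 3, had a mean of 87.6 TPM at WS_0h. Whether other hexokinase genes were as low as hexokinase7 was not tested.

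All 6 genes rose. Changes were measured on log2(TPM + 1) with limma over all 22783 PCgenes with a mean above 1 TPM, and a gene was called up- or down-regulated at a log2 difference above 1 in size with a p under 0.05 after Benjamini-Hochberg adjustment. At each of the 6 waterlogged time points, 6 of the 6 genes were up-regulated against WS_0h, while the share of all tested PCgenes called up was 4.18% after 2 h, 19.3% after 4 h, 9.09% after 6 h, 4.3% after 8 h, 7.86% after 10 h and 8.06% after 12 h. The median log2 difference of the 6 genes was 1.33 after 2 h, 2.49 after 4 h, 2.39 after 6 h, 1.97 after 8 h, 2.65 after 10 h and 2.67 after 12 h, and that of all tested PCgenes lay between -0.079 and -0.0021. The 6 comparisons share the WS_0h libraries. Pyruvate decarboxylase1, at 0.293 TPM before stress, passed the filter only through its waterlogged libraries, so its part in these counts was partly set by the filter. Up-regulated PCgenes made up 78.5%, 44.9%, 56.6%, 53.2%, 57.0% and 58.3% of the calls at the 6 time points from WS_2h to WS_12h. They made up 63.5%, 45.8%, 43.4%, 46.9%, 43.5% and 44.3% when every library was scaled to the same total over the listed PCgenes. For each of the 6 genes all 18 waterlogged libraries lay above the 3 WS_0h libraries, as they did for 5.62% of the tested PCgenes. Together the 6 genes held 0.194% ± 0.0371 (SD, n = 3) of the listed TPM at WS_0h and 1.01% ± 0.056 at WS_12h. The F test over the 7 time points passed for all 6, as it did for 82.9% of the tested PCgenes.

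**Figure D1:**
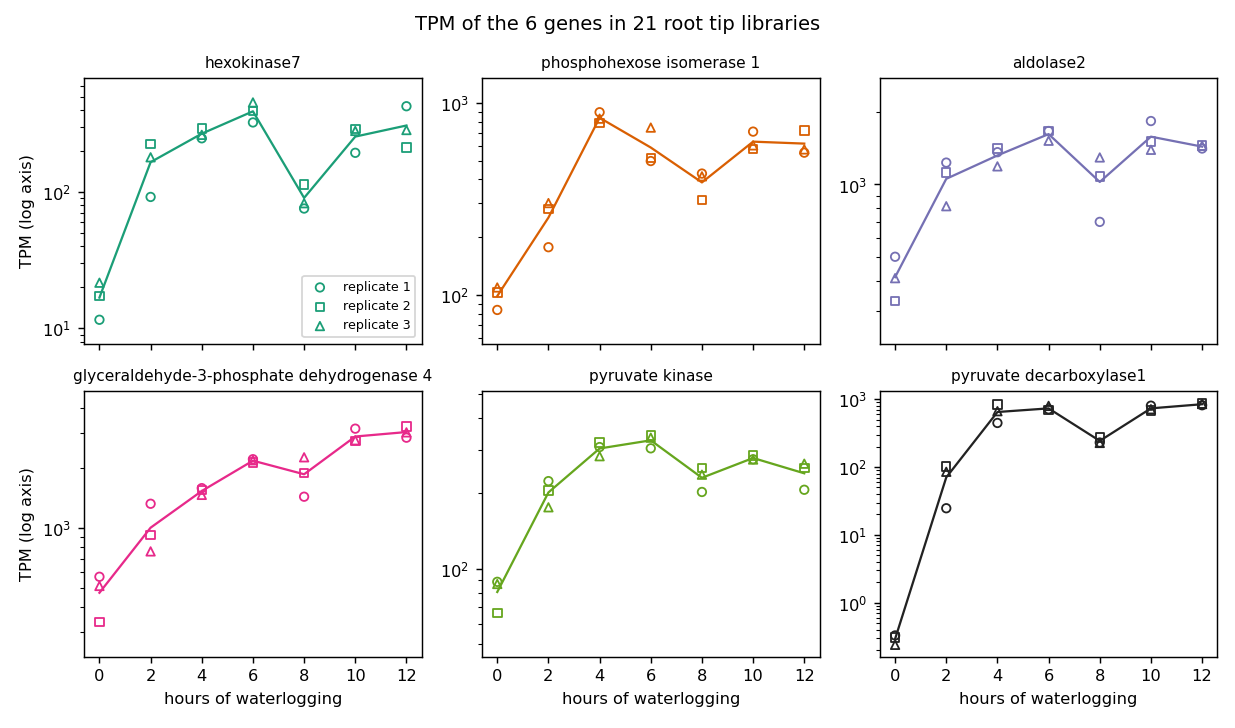
TPM of each gene (log axis, a scale of its own in each panel) against hours of waterlogging. Symbols are the 3 libraries of a time point and lines join their means; pyruvate decarboxylase1 climbs from 0.293 TPM to 843 TPM, and every waterlogged library lies above the WS_0h libraries in all 6 panels.

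Hexokinase7, at the entry of the pathway, had 11.6, 17.3 and 21.6 TPM in the WS_0h libraries and 92.2, 226 and 180.2 TPM at WS_2h. It went on to 248, 294 and 263 TPM at WS_4h and 325, 396 and 455 TPM at WS_6h, where its mean was highest. The WS_2h libraries were spread widely, with replicate 1 far below the others, while the lowest WS_6h library lay above every WS_4h library. At WS_8h it held only 75.8, 113 and 82.9 TPM, followed by 194, 291 and 281 TPM at WS_10h and 427, 212 and 286 TPM at WS_12h. All 3 WS_8h libraries were below all WS_4h, WS_6h, WS_10h and WS_12h libraries and overlapped those of WS_2h. The log2 difference from WS_0h was 3.17 at WS_2h (limma with Benjamini-Hochberg, adjusted p 6.12e-07), 4.49 at WS_6h (2.07e-09) and 2.38 at WS_8h (1.60e-05), each with a standard error of 0.31. In mean TPM the gene stood 9.86-fold above WS_0h after 2 h, 23.3-fold after 6 h and 5.39-fold after 8 h.

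Phosphohexose isomerase 1, the next enzyme, had 83.7, 103 and 109.6 TPM at WS_0h, then 178, 281 and 301 TPM at WS_2h, and after 4 h 896, 789.6 and 829.8 TPM. Its highest mean fell at WS_4h, 8.48-fold above WS_0h, and each of these 3 libraries exceeded all other 18 libraries. How many of the tested PCgenes were separated at WS_4h in this way was not counted. The log2 difference of this gene from WS_4h to WS_6h (-0.54) was not called by limma. Later values were 499, 516 and 745 TPM at WS_6h, 429, 314 and 416 TPM at WS_8h, 710.3, 577 and 602 TPM at WS_10h and 552, 719.9 and 574 TPM at WS_12h. The WS_6h, WS_10h and WS_12h libraries overlapped, and those of WS_8h lay below all of them. Its log2 difference from WS_0h was 1.32 at WS_2h (limma, adjusted p 2.44e-04) and 3.08 at WS_4h (6.58e-10), with a standard error of 0.21.

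Aldolase2 had 503, 329 and 409.9 TPM at WS_0h and already 1231, 1121 and 813 TPM at WS_2h. At WS_6h, the time of its highest mean, the libraries held 1663, 1666 and 1516 TPM, and at WS_8h 700.4, 1079 and 1293 TPM. Here WS_8h replicate 1 lay below all other waterlogged libraries, and the libraries of WS_4h, WS_10h and WS_12h ran from 1187.9 to 1829 TPM, those of WS_10h overlapping both others. The log2 difference from WS_0h ran from 1.28 at WS_8h (limma, adjusted p 3.33e-04) to 1.98 at WS_6h (1.18e-06), with a standard error of 0.22.

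Glyceraldehyde-3-phosphate dehydrogenase 4 reached its highest mean only at the end of the series. It had 567, 336 and 509 TPM at WS_0h, 1319.6, 921 and 760.0 TPM at WS_2h, after 4 h 1581, 1545 and 1462 TPM and after 6 h 2210.3, 2126 and 2183 TPM. The libraries of these 4 time points did not overlap. At WS_8h it had 1432, 1879 and 2259.6 TPM, at WS_10h 3148, 2723 and 2753 TPM and at WS_12h 2836, 3229 and 3016 TPM. The WS_8h libraries lay on both sides of the WS_6h values, and the WS_10h and WS_12h libraries overlapped each other above all others. Its mean moved from place 108 among all listed PCgenes at WS_0h to place 6 at WS_10h and WS_12h. The log2 difference from WS_0h was 1.08 at WS_2h (limma, adjusted p 0.00289) and 2.71 at WS_12h (2.94e-08), with a standard error of 0.22. The call at WS_2h was the only one against WS_0h that was lost under any alternative tried: it did not hold when WS_2h replicate 1 (0.86) or WS_0h replicate 2 (0.86) was left out, with every library scaled to the same total (0.88, with a median of all tested PCgenes of -0.17), and, on its adjusted p (0.0911), when only WS_0h and WS_2h were fitted.

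Pyruvate kinase, which closes glycolysis, had 88.5, 66.5 and 86.8 TPM at WS_0h, 224, 206 and 176 TPM at WS_2h, after 4 h 307, 319.9 and 282 TPM and after 6 h 303, 342 and 335 TPM. The last of these gave the highest mean but overlapped WS_4h. From WS_8h to WS_12h the libraries ran from 203 to 284 TPM. Its log2 difference from WS_0h lay between 1.32 at WS_2h (limma, adjusted p 3.01e-06) and 2.02 at WS_6h (3.92e-09), with the smallest standard error of the 6 genes, 0.14.

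Pyruvate decarboxylase1 rose the most. It had 0.33, 0.31 and 0.24 TPM at WS_0h, then 24.7, 102 and 85.2 TPM at WS_2h, and after 4 h 447, 830.3 and 666 TPM. It stood at 710.4, 689.6 and 797 TPM at WS_6h and at 229.7, 273 and 227 TPM at WS_8h. The WS_8h libraries lay below all those of WS_4h and WS_6h and above all those of WS_2h. Values returned to 803, 685 and 712 TPM at WS_10h and 814, 867 and 849 TPM at WS_12h, where each library exceeded those of WS_10h but overlapped those of WS_4h. In mean TPM this was 240.4-fold above WS_0h at WS_2h, 2208-fold at WS_4h and 2875-fold at WS_12h, ratios that rest on a WS_0h level below 1 TPM whose read counts were not used here. On log2(TPM + 1), which understates the change of so low a gene, the difference was 5.56 at WS_2h (limma, adjusted p 8.83e-10), 8.92 at WS_4h (4.13e-13) and 9.35 at WS_12h (3.47e-13), with a standard error of 0.34. Among the 22783 tested PCgenes it held place 1 by this difference at WS_6h and WS_12h and place 27 at WS_2h, or place 2 and place 16 with a pseudocount of 0.1 TPM, which raised the 3 differences to 7.26, 10.65 and 11.07. A gene below 1 TPM at WS_0h passes the filter only if it is higher later. The rise and these places of pyruvate decarboxylase1 were thus partly fixed by the filter. WS_2h replicate 1 was well below its companions, and without it the WS_2h difference was 6.18.

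**Figure D2:**
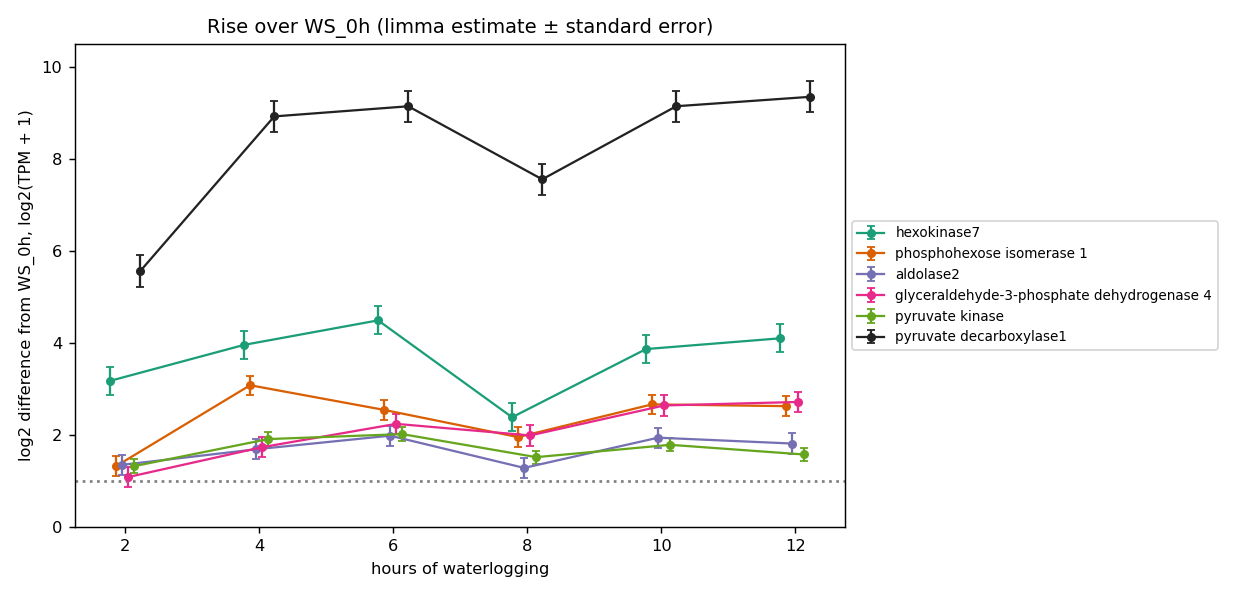
Log2 difference from WS_0h on log2(TPM + 1) for the 6 genes against hours of waterlogging, as limma estimates with standard errors; the dotted line marks the fold threshold of 1. Pyruvate decarboxylase1 lies between 5.56 and 9.35, hexokinase7 between 2.38 and 4.49, and the other genes between 1.08 and 3.08.

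The other pyruvate decarboxylase named by the study, isozyme 3 (Zm00001d028759), was not rare before stress, at 87.6 ± 2.9 TPM. Pyruvate decarboxylase1 amounted to 0.336% ± 0.0637 (SD, n = 3) of the TPM of isozyme 3 at WS_0h, 9.62% ± 4.64 at WS_2h, 25.4% ± 9.0 at WS_4h, 24.2% ± 3.9 at WS_8h and 54.9% ± 1.54 at WS_12h. Isozyme 3 was highest at WS_4h (2587 ± 175 TPM), whereas pyruvate decarboxylase1 was highest at WS_12h. Isozyme 3 also dipped, to 1018 ± 133 TPM at WS_8h, and stood at 1711 ± 122 TPM at WS_10h and 1537 ± 9.78 TPM at WS_12h. Its log2 difference from WS_6h to WS_8h was -1.14 (limma, adjusted p 7.85e-05), which passed both thresholds. Only uniquely mapped reads entered the TPM, so reads that such related genes have in common are not in the values, and how many these were was not tested.

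The order of the 6 genes by level changed during stress. Glyceraldehyde-3-phosphate dehydrogenase 4 and aldolase2 remained the highest pair throughout and overlapped only at WS_0h and WS_2h. Pyruvate decarboxylase1 moved from the sixth place, held until WS_2h, to the fourth at WS_4h and WS_8h and the third at WS_6h, WS_10h and WS_12h. Its libraries overlapped those of phosphohexose isomerase 1 at WS_4h, WS_6h and WS_10h and those of pyruvate kinase at WS_8h, so that of its places from WS_4h on only that at WS_12h was free of overlap with both neighbours. At WS_12h the order was the dehydrogenase (3027 ± 197 TPM), aldolase2 (1433 ± 22.2 TPM), pyruvate decarboxylase1 (843 ± 26.7 TPM), phosphohexose isomerase 1 (615 ± 91.3 TPM), hexokinase7 (308 ± 109 TPM) and pyruvate kinase (241 ± 29.9 TPM). Only hexokinase7 and pyruvate kinase overlapped.

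Whether 2 genes rose by different amounts was tested on the log2 ratio of their values within each library, for all 15 pairs, with exact two-sided permutation tests and Benjamini-Hochberg adjustment over the 45 tests made on pairs. Single libraries were permuted across time points, so these p-values mix the spread between replicates with changes between time points. Between the 18 waterlogged and the 3 WS_0h libraries the ratio shifted in 9 of 15 pairs. Pyruvate decarboxylase1 rose more than each of the other 5 genes, whose log2 ratio to it shifted by -4.62 (hexokinase7) to -6.61 (aldolase2) (exact permutation, adjusted p 0.0046 for all 5, from the smallest p that 1330 arrangements allow, 0.00075). Since this gene was among the tested PCgenes only through its waterlogged libraries, the direction of these 5 shifts is not independent evidence. Hexokinase7 rose more than phosphohexose isomerase 1 (by 1.30, exact adjusted p 0.00781), glyceraldehyde-3-phosphate dehydrogenase 4 (1.60, 0.0158), pyruvate kinase (1.98, 0.0046) and aldolase2 (1.99, 0.0046). The pair with the dehydrogenase lost its call without WS_0h replicate 1 (1.21, exact adjusted p 0.103). Among the 6 pairs of the remaining 4 genes the shifts were between 0.01 and 0.69 in size and did not pass (exact adjusted p from 0.0647 to 0.94). Of these, phosphohexose isomerase 1 passed against aldolase2 (0.77, exact adjusted p 0.0383) and pyruvate kinase (0.75, 0.0221) without WS_2h replicate 1, and against pyruvate kinase (0.72, 0.0487) without WS_8h replicate 2.

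On the log2 scale, 39.8% to 70.7% of the highest mean rise was already present after 2 h. Hexokinase7 had covered 70.7% of its highest mean rise at WS_2h, aldolase2 68.0%, pyruvate kinase 65.5%, pyruvate decarboxylase1 59.5%, phosphohexose isomerase 1 42.9% and the dehydrogenase 39.8%. Over all alternatives and with single libraries left out, the shares of the first 4 genes ran from 55.5% to 79.0% and their order changed, as without WS_2h replicate 1, when pyruvate decarboxylase1 (66.1%) came before aldolase2 (61.8%) and pyruvate kinase (61.6%). Those of phosphohexose isomerase 1 and the dehydrogenase ran from 31.8% to 50.6%. These shares are a description, and whether they differ between genes was not tested. They also depend on the scale. Mean TPM at WS_2h was 65.3% of its highest value for aldolase2, 61.8% for pyruvate kinase and 42.4% for hexokinase7. It was 33.0% for the dehydrogenase, 30.2% for phosphohexose isomerase 1 and 8.36% for pyruvate decarboxylase1.

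Whether the levels of 2 genes relative to each other moved on after WS_2h is a separate question, which depends on the size of the remaining rise and not on the share already reached. Between the 3 WS_2h libraries and the 15 later ones, the ratio of 8 of 15 pairs differed, and 5 of these 8 include pyruvate decarboxylase1, the gene with the largest rise. Each of the other 5 genes stood higher relative to pyruvate decarboxylase1 at WS_2h than later, by 2.01 (phosphohexose isomerase 1) to 2.87 (aldolase2) on the log2 scale (exact permutation, adjusted p 0.0046, and 0.0118 for the dehydrogenase). Aldolase2 stood higher relative to the dehydrogenase, by 0.79 (exact adjusted p 0.0046). Phosphohexose isomerase 1 was lower relative to aldolase2 (-0.86, exact adjusted p 0.0292) and to pyruvate kinase (-0.81, 0.0276). These last pairs lost their calls without WS_2h replicate 1 (-0.50 in both, exact adjusted p 0.213 and 0.14) or without WS_2h replicate 2 (-0.90 and -0.89, exact adjusted p 0.0788 and 0.0735). Without replicate 2 the shifts were larger in size while fewer arrangements were left, so that loss cannot tell whether the calls rested on this library. The ratio of the dehydrogenase to pyruvate kinase, which did not pass (-0.74, exact adjusted p 0.0526), did so without WS_2h replicate 1 (-0.88, exact adjusted p 0.0383) or any one of the WS_4h libraries (-0.79, exact adjusted p 0.029 to 0.0331). The ratios of hexokinase7 to the dehydrogenase (0.60) and to phosphohexose isomerase 1 (0.67) did not pass (exact adjusted p 0.386 and 0.186). WS_2h replicate 1 was the lowest of its time point for hexokinase7, phosphohexose isomerase 1 and pyruvate decarboxylase1 and the highest for aldolase2, the dehydrogenase and pyruvate kinase.

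**Figure D3:**
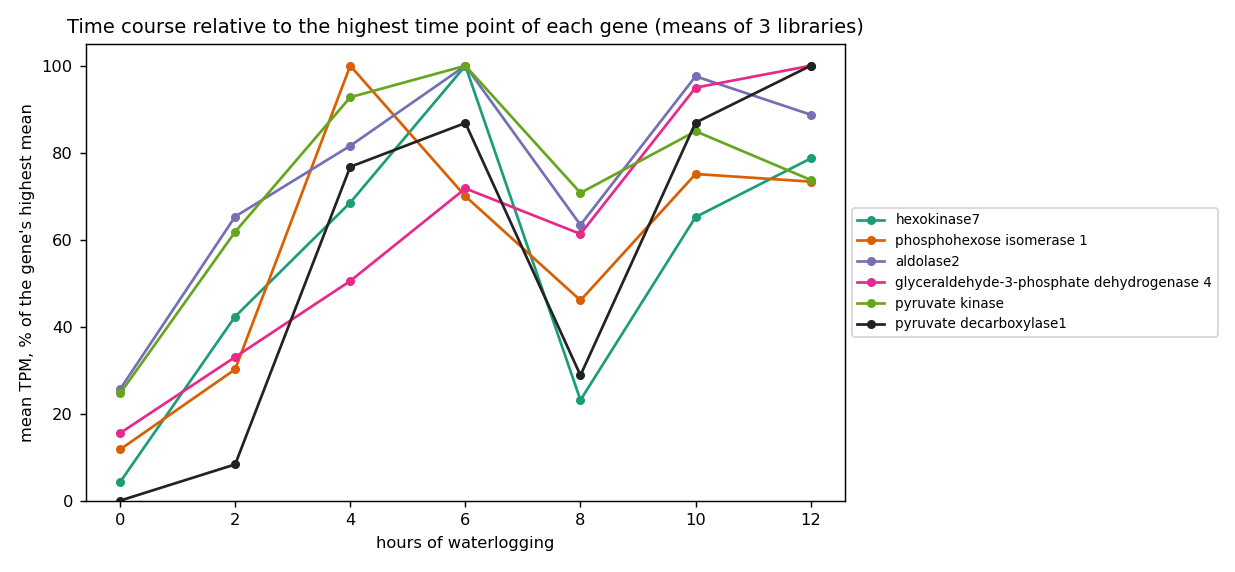
Mean TPM of each gene (n = 3 libraries) as a percentage of the highest time point mean of the same gene, against hours of waterlogging. Phosphohexose isomerase 1 reaches 100% at WS_4h, hexokinase7, aldolase2 and pyruvate kinase at WS_6h and the remaining genes at WS_12h, and at WS_8h hexokinase7 (23.1%) and pyruvate decarboxylase1 (28.8%) lie lowest.

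The time of the highest mean was WS_4h for phosphohexose isomerase 1, WS_6h for hexokinase7, aldolase2 and pyruvate kinase, and WS_12h for glyceraldehyde-3-phosphate dehydrogenase 4 and pyruvate decarboxylase1. The libraries of the highest and the second-highest time point overlapped for hexokinase7, aldolase2, the dehydrogenase and pyruvate kinase, so their peaks are not separated from the next time point beyond the replicate spread. Those of pyruvate decarboxylase1 at WS_12h lay above WS_10h but overlapped WS_4h. Its limma difference from WS_10h to WS_12h was only 0.20 with a standard error of 0.34, so its peak is not resolved either. At WS_4h, compared with WS_2h and WS_6h together, only the ratio of hexokinase7 to phosphohexose isomerase 1 of the 15 pairs passed (-1.02, exact permutation, adjusted p 0.0298). The smallest p possible there is 0.0119 with all libraries, and this call was lost without WS_2h replicate 2 (-0.96, exact adjusted p 0.0502) or any one of the WS_4h libraries (-0.92 to -1.13, exact adjusted p 0.0846). Leaving out a library leaves fewer arrangements and raises the smallest p possible. The adjusted p was the same whichever WS_4h library was left out, even without replicate 2, where the shift was larger in size (-1.13). These losses therefore cannot tell whether the call rested on a single library. Phosphohexose isomerase 1 was higher at WS_4h relative to aldolase2 (1.13), the dehydrogenase (1.08) and pyruvate kinase (0.91) without passing (exact adjusted p 0.067, 0.051 and 0.051). Leaving out 1 library took these ratios past the threshold in 5 cases, namely that to the dehydrogenase (0.89) and to pyruvate kinase (0.73) without WS_2h replicate 1, that to the dehydrogenase without WS_2h replicate 3 (1.20), and those to aldolase2 (1.28) and pyruvate kinase (1.03) without WS_6h replicate 3 (exact adjusted p 0.0383 to 0.0423). The ratio of hexokinase7 to pyruvate kinase also passed without WS_2h replicate 1 (-0.36, exact adjusted p 0.0383).

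Successive time points were compared in the same limma fit. From WS_2h to WS_4h, phosphohexose isomerase 1 rose by 1.76 (limma, adjusted p 7.86e-07) and pyruvate decarboxylase1 by 3.36 (1.17e-07; 2.74 without WS_2h replicate 1) on the log2 scale, while 17.0% of all tested PCgenes were called up. The other 4 genes had differences of 0.34 to 0.78 and were not called. Hexokinase7 (0.78, limma, adjusted p 0.0289), the dehydrogenase (0.65, 0.0139) and pyruvate kinase (0.59, 0.00136) missed only the fold threshold. Hexokinase7 was called without WS_2h replicate 2 (1.05) or, by passing the fold threshold narrowly, with every library scaled to the same total. From WS_4h to WS_6h none of the 6 genes was called by limma in either direction, and 18.4% of the PCgenes were called up and 13.3% down. The differences ran from -0.54 (phosphohexose isomerase 1) to 0.53 (hexokinase7). That of phosphohexose isomerase 1 missed only the fold threshold (limma, adjusted p 0.0313, unadjusted p 0.0197). Of the other genes only the dehydrogenase (0.51) had an unadjusted p under 0.05 there (0.0349), with an adjusted p of 0.0522.

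At WS_8h all 6 genes were lower than at WS_6h in mean. Hexokinase7 fell by 2.11 (limma, adjusted p 1.61e-04) and pyruvate decarboxylase1 by 1.59 (0.00328) on the log2 scale, and both were called, against 5.36% of the PCgenes called down. Aldolase2 (-0.70), phosphohexose isomerase 1 (-0.59), pyruvate kinase (-0.50) and the dehydrogenase (-0.25) did not pass the fold threshold (limma, adjusted p 0.0314, 0.0553, 0.0205 and 0.463). By WS_10h hexokinase7 had risen again by 1.48 (limma, adjusted p 0.00584) and pyruvate decarboxylase1 by 1.59 (0.0073), against 2.8% of the PCgenes called up. The other 4 genes had differences from 0.27 (pyruvate kinase) to 0.71 (phosphohexose isomerase 1) that were not called. That of phosphohexose isomerase 1 missed only the fold threshold (limma, adjusted p 0.0464). Whether the dip at WS_8h differed in size between the genes was not tested. Up-regulated PCgenes made up 42.5%, 58.1%, 29.0% and 78.9% of the calls in these 4 successive steps, and 52.9%, 44.1%, 40.7% and 69.0% with every library scaled to the same total. From WS_10h to WS_12h the differences of the 6 genes ran from -0.21 (pyruvate kinase) to 0.23 (hexokinase7). In that step limma called 0 PCgenes in all, with 525 at an unadjusted p under 0.05 and none of the 6 genes among them.

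**Figure D4:**
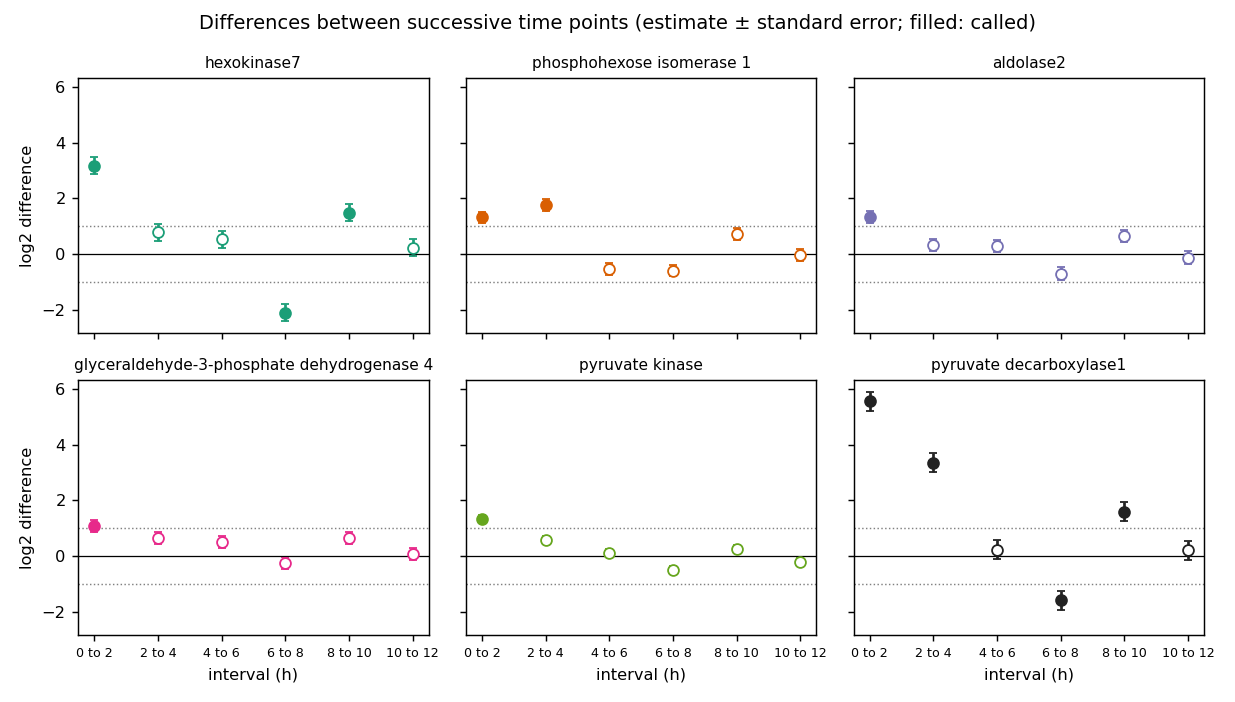
Log2 difference on log2(TPM + 1) between successive time points for the 6 genes, as limma estimates with standard errors; filled symbols passed both thresholds and dotted lines mark the fold threshold of 1 in both directions. After WS_4h only hexokinase7 (-2.11, then 1.48) and pyruvate decarboxylase1 (-1.59, then 1.59) have filled symbols.

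The patterns of the 6 genes over the 21 libraries were alike but not closest to one another. Pearson r of log2(TPM + 1) between them ran from 0.775 (hexokinase7 with the dehydrogenase) to 0.956 (phosphohexose isomerase 1 with pyruvate decarboxylase1), and the best place that any of them took among the PCgenes most like another was 10 (pyruvate kinase for aldolase2, r 0.944). Isozyme 3 of pyruvate decarboxylase took place 2 for pyruvate kinase (r 0.971). The closest patterns of all belonged to Zm00001d022461 for pyruvate decarboxylase1 (r 0.995), with a lowest mean of 2.78 TPM before stress and a highest of 289 TPM after 6 h, and to Zm00001d051001 for the dehydrogenase (r 0.992), with 557 TPM before stress and 2580.4 TPM after 10 h. Neither ID is paired with a name in the sources used here. The nearest pattern had r 0.981 for hexokinase7, 0.978 for phosphohexose isomerase 1, 0.968 for aldolase2 and 0.977 for pyruvate kinase. These values are descriptions over 21 libraries that share the same 7 time points.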

How the data were processed

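The deposited table holds TPM, which the authors obtained after read checks with FastQC, trimming with Trimmomatic, alignment to B73 RefGen_v4 with HISAT2 2.0.5 and counting of uniquely mapped reads with featureCounts. Whether counting used strand is not given in the sources used here. Read counts, which the authors analysed with DESeq2, and the lncRNA table were not used here. The sum over listed PCgenes was 534645 to 689689 TPM.

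Sample titles gave time points and replicate numbers, and all 21 libraries entered. The 22783 PCgenes with a mean above 1 TPM were fitted together as log2(TPM + 1) by limma (version 3.58.1, R 4.3.3) with the time point as the only factor and trend on. The fit was tested on simulated data. The p-values of limma measure the spread between libraries of the same time point. Those of the exact tests come from single libraries permuted across time points, so they mix this spread with changes between time points. Ratios between genes were tested by exact permutation (Python 3.11.15, numpy 2.4.6). Alternatives comprised a pseudocount of 0.1 TPM, other filters (none, or a mean above 5 TPM), a fit without trend, fits restricted to the groups compared, a replicate block, median-of-ratios scaling, scaling to the same listed total, and omission of each library.

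The 6 genes, lists and tests were chosen with earlier results of these data known. Named genes are the 6 genes, isozyme 3 of pyruvate decarboxylase and the PCgenes nearest in pattern, of which 2 unnamed IDs are printed. A list of glycolytic enzymes and tissue markers, to be found by name, could not be made, since 0 of the 23175 IDs occur in the RefSeq gene table used here, and for the same reason no sequence or position is given.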

Additional observations from a re-analysis of the deposited data

How the results depend on the processing

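Counts of the 6 genes called moved by at most 1 gene in any comparison and alternative. Of 1044 values of single genes against WS_0h under alternatives, 1040 kept direction and call, and the other 4 are the losses of glyceraldehyde-3-phosphate dehydrogenase 4 at WS_2h. Scaling to the same total over the listed PCgenes shifted the median of all tested PCgenes to between -0.25 and -0.04 against WS_0h. It turned the sign of 2 small differences from WS_4h to WS_6h, that of pyruvate kinase from 0.11 to -0.11 and that of pyruvate decarboxylase1 from 0.22 to -0.0028, neither called. With single libraries left out, the count of pairs whose ratio differed at WS_4h ran from 0 to 4 around a main count of 1, and the count of overlapping neighbours at WS_0h from 1 to 2 (2 with all libraries). The corresponding counts of pairs were 8 to 11 under waterlogging (9 with all libraries) and 6 to 9 at WS_2h (8 with all libraries). Leaving out a library of the groups compared raises the smallest p possible, which by itself can lower the counts of pairs. Uncalled values that changed sign with 1 library left out ranged as follows. For successive time points, pyruvate decarboxylase1 from WS_4h to WS_6h ran from -0.024 to 0.42, and from WS_10h to WS_12h hexokinase7 from -0.030 to 0.47 and phosphohexose isomerase 1 from -0.16 to 0.052. For ratios, aldolase2 to pyruvate kinase under waterlogging ran from -0.066 to 0.066. At WS_2h against later, hexokinase7 to aldolase2 ran from -0.48 to 0.30, hexokinase7 to pyruvate kinase from -0.40 to 0.31 and phosphohexose isomerase 1 to the dehydrogenase from -0.39 to 0.38. At WS_4h, hexokinase7 to aldolase2 ran from -0.16 to 0.23, hexokinase7 to the dehydrogenase from -0.20 to 0.16 and aldolase2 to the dehydrogenase from -0.12 to 0.040. Replicate numbers are shared between time points, and the labels do not say that a number marks a shared batch. Since only 19 of 63 pairs of libraries with the same number deviated together with r above 0.1 (lowest -0.258), the numbers were not taken as a pairing. As a hint from the data towards some pairing, the mean r was 0.052 for the same number and -0.025 for other numbers, and 12 of 21 libraries correlated best with their own number, more than an even split over 3 numbers would give. With a replicate block 6 of 6 genes were called up at each time point, as without it, and 1265 PCgenes in place of 1214 were called at WS_2h, and no call of the 6 genes changed. Alternatives for the list of glycolytic enzymes were not run, and ratios were run with another pseudocount and without single libraries only.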
